A study of Mus musculus with 6 samples.

Results

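The genes described here encode the nuclear subunits of the mitochondrial respiratory chain and of ATP synthase, read out in cultured mouse eosinophils given IL-4 or IL-33. They were taken from the deposited tables by name: symbols beginning with Ndufa, Ndufb, Ndufc, Ndufs, Ndufv, Sdha, Sdhb, Sdhc, Sdhd, Uqcr, Cox4, Cox5, Cox6, Cox7, Cox8 or Atp5, without the muscle isoforms Cox6a2, Cox7a1 and Cox8b and without pseudogene names. This gave 89 of 22548 gene symbols, and 98 of 28702 transcripts. Of the 89, 79 encode subunits: 7 core and 29 accessory subunits of complex I, 4 of complex II, 8 of complex III, 16 of complex IV (Ndufa4 counted there) and 15 of complex V. The name rule also took in 6 assembly factors (Ndufaf1, Ndufaf2, Ndufaf3, Ndufaf4, Sdhaf1 and Sdhaf2) and 4 genes that are not subunits of the chain or whose name only resembles one (Cox4nb, Atp5s, Atp5sl and Ndufa4l2), which are kept apart below.

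The mice were wild-type, of the BALB/c strain and 4 to 8 weeks old, and low-density cells of their marrow were grown into eosinophils. The culture medium held stem cell factor and FLT3 ligand (each at 100 ng/ml) up to day 4, after which IL-5 (10 ng/ml) took their place until day 14, so cells of every group had been through the same cytokines. On day 14 they were left untreated or were given IL-4 or IL-33 at 10 ng/ml, and total RNA was sequenced as single reads after 1 h or 4 h. The 6 groups (untreated, IL-4 and IL-33, each at 1 h and 4 h) held 1 library each. The differences below therefore stand without replicates, and p-values are not given. The labels do not say how many mice gave the marrow.

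The respiratory chain passes electrons from NADH (at complex I) and from succinate (at complex II) through coenzyme Q, complex III and cytochrome c to oxygen at complex IV. Complexes I, III and IV pump protons across the inner mitochondrial membrane, and complex V, the ATP synthase, uses the gradient to make ATP. The subunits come from nuclear genes and from mitochondrial DNA, whose genes were not analysed here. Granulocytes draw much of their ATP from glycolysis, and eosinophils are known to keep more mitochondria than neutrophils do.

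Levels are given as FPKM, fragments per kilobase of transcript scaled to the mapped reads of a library, which is per length and so may be compared between genes. Changes are log2 ratios of FPKM + 1 for genes whose FPKM reached 1 in a library of the comparison, and a change of at least 0.5 or at least 1 on that scale is counted. Each treated library stands in a table with its own copy of the untreated library, and each table has its own scale: the untreated values of the IL-33 tables were 0.945 times (1 h) and 0.947 times (4 h) those of the IL-4 tables. Every treated value is therefore set against the untreated value of its own table. Depth, recovered from the steps between low FPKM values, was about 14.2 to 28.3 M reads on the scale of each table. The IL-33 4 h library was 1.89 times as deep as its untreated control. The same untreated library came out at 19.2 M in the IL-4 table and 20.4 M in the IL-33 table at 1 h, and at 14.2 and 15.0 M at 4 h. The depths are therefore approximate. At this depth 80 of the 89 members had at least 100 estimated reads in every library, and 49 had at least 1000. The cells carried the eosinophil markers looked for: all 9 (among them Prg2, Epx, Ccr3 and the Ear genes) were at FPKM of at least 1 in every library and together made up 7.69% to 9.80% of the summed FPKM. Neutrophil markers summed to FPKM 5961 to 8337 and monocyte and macrophage markers to 1144 to 1914; whether eosinophils or other cells gave this RNA was not tested. In such bulk samples, fewer cells of a type and less RNA per cell cannot be told apart.

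Most subunit genes lay well above the median gene of these cells, and the complexes differed in level. In untreated cells 76 of the 79 subunit genes were at FPKM of at least 1, and their levels summed to FPKM 11373 at 1 h and 10899 at 4 h. All members together held 1.33% (IL-33 4 h) to 1.56% (untreated 1 h) of the summed FPKM of a library. In the untreated libraries 41 members at 1 h and 42 at 4 h lay above the 90th percentile of all genes at FPKM of at least 1. By the mean of the untreated libraries, the median member stood at FPKM 227 in complex V, 221 in complex IV, 114 in complex III, 69.2 in complex II, 68.9 among the accessory and 38.1 among the core subunits of complex I, against 12.6 for all genes at FPKM of at least 1. The assembly factors lay lower, with a median of 10.2.

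**Figure D1:**
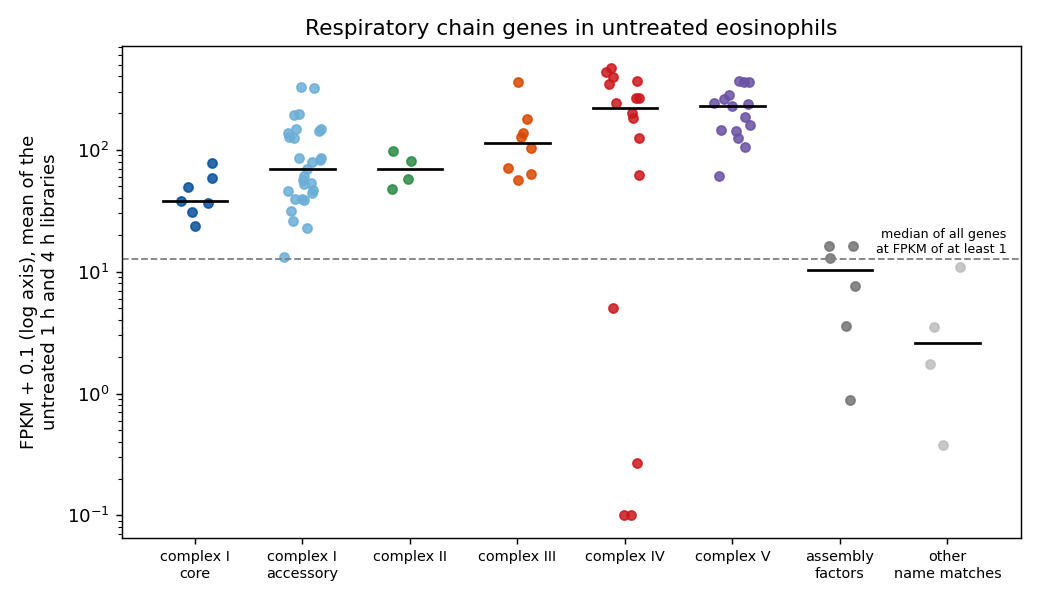
FPKM + 0.1 of the 89 members on a log axis, as the mean of the untreated 1 h and 4 h libraries in the IL-4 tables. Each point is a gene, black bars are medians of each class and the dashed line is the median of all genes at FPKM of at least 1 (12.6). All subunits lie above the dashed line except 4 of complex IV: Cox6b2, and near the floor Cox4i2, Cox7b2 and Cox8c.

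Complex IV held the most abundant members. Cox4i1, the ubiquitous form of the subunit IV that binds ATP, was at FPKM 478 at 1 h and 454 at 4 h in untreated cells, and Cox8a, the ubiquitous form of a very small membrane subunit, was at 463 and 407. The next were Cox6a1 (403 and 380) and Cox6b1 (375 and 364). Their tissue-restricted paralogues were nearly absent: Cox4i2, the lung and hypoxia-induced form, did not exceed 0.279 in any library, Cox8c was listed at 0 throughout, and Cox7b2 was listed at 0 except for 0.114 in the IL-33 1 h library. Cox6b2, known as the testis form of Cox6b, was detected at a low level, 4.64 and 5.25. Of the Cox7a family, Cox7a2l, a supercomplex assembly factor, was at 261 and 266, above Cox7a2 at 132 and 116. Ndufa4, first described in complex I and now placed in complex IV, was at 186 and 178, while its relative Ndufa4l2 was at 0.563 and 0.

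In complex V, Atp5k (subunit e) and Atp5l (subunit g), small subunits of the membrane part, were the highest, at 390 and 341 and at 393 and 327. Atp5g1 was the lowest at 63.9 and 58.2. Atp5g1, Atp5g2 and Atp5g3 encode the same mature subunit c of the proton-turning ring, and the last 2 were at 217 and 238 and at 246 and 228, so Atp5g1 gave the smallest of the 3 levels. The catalytic subunit Atp5b was at 257 and 265. In complex III, Uqcrh (370 and 355) and Uqcrq (186 and 170), small accessory subunits, were highest and the Rieske iron-sulfur protein Uqcrfs1 was lowest (58.7 and 54.7). In complex II, the membrane anchor Sdhd (96.6 and 99.2) and the iron-sulfur subunit Sdhb (79.7 and 82.3) were highest and the flavoprotein Sdha was lowest (44.7 and 49.9).

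In complex I the accessory subunits Ndufa3 (352 and 296) and Ndufa6 (341 and 309) were highest and Ndufa11, a membrane-arm subunit, was lowest (13.3 and 12.7). Of the core subunits, which carry the flavin and the iron-sulfur clusters or lie beside them, Ndufs1 was the lowest, at 23.7 as the mean of the untreated libraries. Core transcripts were longer than accessory ones, with medians of 1623 and 680 bases. Over 76 subunits the Spearman correlation of transcript length with level was -0.41. It is given as a description across genes of the same libraries, and the part of length in the order of the levels was not tested.

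Promoter sequences were available in RefSeq (build GRCm38.p6) for 74 of the 89 members, as windows from 250 bases before to 50 bases after the start. Shares are of genes, and a gene with several windows holds a motif if any window does. NRF1 is a transcription factor known for binding promoters of respiratory chain genes. Its palindromic consensus, in capitals in the Atp5k sequence below, stood in 6 of the 74 members (8.11%). It stood in 2.56% of 7647 genes at FPKM of at least 1 in an untreated library and in 1.07% of all 27025 genes. With its sixth base left free, a form that includes the former, the shares were 24.3%, 12.3% and 5.19%. The ETS core CCGGAAG, bound by GABP, stood in 25.7% of members and 21.9% of expressed genes. The extended YY1 motif stood in 6.76% and 2.03%, and the letters TATAAA in 8.11% and 8.59%. All were searched on both strands. The following 250-base stretches end at the annotated start. The first 4 are shown because they hold the exact NRF1 palindrome, in genes of high level (Atp5k, Cox6a1) and in the least abundant accessory subunit of complex I (Ndufa11). Capitals mark the palindrome, for Cox6a1 also a match of the form with a free base and CTTCCGG, the ETS core read on the other strand. The Atp5k stretch lies at chr5:108434400-108434649 on the minus strand, that of Cox6a1 at chr5:115348959-115349208 on the minus strand, that of Atp5g2 at chr15:102671048-102671297 on the minus strand and that of Ndufa11 at chr17:56717512-56717761 on the plus strand.
Atp5k: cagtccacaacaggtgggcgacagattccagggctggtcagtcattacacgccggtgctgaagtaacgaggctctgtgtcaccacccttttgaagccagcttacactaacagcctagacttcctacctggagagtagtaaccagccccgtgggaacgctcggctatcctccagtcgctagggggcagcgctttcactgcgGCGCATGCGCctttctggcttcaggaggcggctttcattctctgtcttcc
Cox6a1: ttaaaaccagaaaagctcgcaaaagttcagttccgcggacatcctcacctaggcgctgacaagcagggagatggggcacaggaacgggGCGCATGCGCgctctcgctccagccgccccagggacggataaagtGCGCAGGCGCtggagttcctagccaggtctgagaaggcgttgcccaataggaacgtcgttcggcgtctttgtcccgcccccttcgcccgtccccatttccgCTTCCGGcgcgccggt
Atp5g2: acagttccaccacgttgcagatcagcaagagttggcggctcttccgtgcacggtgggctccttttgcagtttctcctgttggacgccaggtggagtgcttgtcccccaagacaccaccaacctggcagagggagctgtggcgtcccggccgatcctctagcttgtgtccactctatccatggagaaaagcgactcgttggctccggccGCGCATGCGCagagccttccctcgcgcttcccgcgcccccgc
Ndufa11: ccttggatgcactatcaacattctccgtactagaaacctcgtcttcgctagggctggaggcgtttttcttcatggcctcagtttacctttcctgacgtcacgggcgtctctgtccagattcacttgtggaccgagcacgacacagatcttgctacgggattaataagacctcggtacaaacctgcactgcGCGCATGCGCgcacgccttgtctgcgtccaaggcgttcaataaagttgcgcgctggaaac

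The last pair belongs to the members that differed most with IL-33, Sdhaf1 and Cox6b2. The Sdhaf1 stretch lies at chr7:30322376-30322625 and that of Cox6b2 at chr7:4753095-4753344, both on the minus strand. No searched motif lies in the Sdhaf1 stretch; its window holds an ETS core after the start. Capitals in the Cox6b2 stretch mark a match to the NF-kB consensus, which was searched after the values had been seen. That consensus stood in 10.8% of members and 12.3% of expressed genes. A match is a description of letters and not a bound site.
Sdhaf1: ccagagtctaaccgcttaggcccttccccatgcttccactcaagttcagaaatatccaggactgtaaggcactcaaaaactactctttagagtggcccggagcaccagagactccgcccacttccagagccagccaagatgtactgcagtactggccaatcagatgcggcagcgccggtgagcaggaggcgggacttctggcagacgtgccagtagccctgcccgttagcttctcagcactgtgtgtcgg
Cox6b2: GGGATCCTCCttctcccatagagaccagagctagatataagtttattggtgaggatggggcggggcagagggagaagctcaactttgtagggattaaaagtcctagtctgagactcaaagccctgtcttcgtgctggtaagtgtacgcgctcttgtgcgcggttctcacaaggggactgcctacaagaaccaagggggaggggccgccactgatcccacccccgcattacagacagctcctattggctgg

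With IL-4 the chain stayed close to its untreated level at both times. At 1 h the median change of 84 members was -0.03, against -0.02 for all 10628 genes compared, and 94.0% of members lay within 0.25 log2 of no change, against 93.6% of all genes. At 4 h the median of 85 members was 0.02, against 0.02 for all 10833 genes, with 95.3% and 90.4% within 0.25 log2. By complex, the medians lay between -0.05 and -0.02 at 1 h and between 0.01 and 0.03 at 4 h, apart from the 7 core subunits of complex I at -0.05 at 4 h. The 13 complex IV genes compared at 1 h were all below 0, yet 12 of them by less than 0.1 log2.

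At 1 h with IL-4, 1 member was higher by at least 0.5 log2 (0.950% of all genes were) and 0 were lower (0.772% of all genes). The former was Ndufs5, an accessory subunit of complex I, at FPKM 38.7 in untreated cells and 64.1 with IL-4, a log2 change of 0.71. Its locus in the tables also holds BC002163, a near-identical copy, which went from 39.9 to 40.3. How reads common to both were divided is not given in the sources used here, and the sum of the pair changed by 0.41. Among members at FPKM of at least 5, the next largest positive changes were in Ndufc2, a membrane-arm subunit, from 40.1 to 48.8 (0.28), and Ndufa5, from 37.4 to 42.0 (0.16). The lowest of these were Ndufaf1 (8.59 to 7.02), Sdhaf1 (15.0 to 12.9) and Ndufa13 (56.0 to 49.0). The locus of Ndufa13 is shared with Tssk6.

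At 4 h with IL-4, 0 members were higher by at least 0.5 log2 (2.00% of all genes were) and 1 was lower (0.886%). This was Cox6b2, at 5.25 in untreated and 3.22 in treated cells (-0.57). Among members at FPKM of at least 5, Ndufb7, Ndufv2 and Ndufs6, all of complex I, gave the largest positive changes, with Ndufb7 at 173 and 212 (0.29), Ndufv2, a core iron-sulfur subunit, at 35.7 and 42.4 (0.24), and Ndufs6 at 64.1 and 75.6 (0.24). Ndufb2 was the lowest after Cox6b2, at 41.2 and 31.5 (-0.38). By at least 1 log2, 0 members were higher or lower with IL-4 at 1 h (0.470% and 0.358% of all genes were), and likewise at 4 h (0.646% and 0.351%).

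With IL-33 for 1 h the subunit genes again stayed near their untreated level while other genes spread. The median change of 84 members was -0.01, equal to the -0.01 of all 10616 genes, but 90.5% of members and only 73.4% of all genes lay within 0.25 log2. Among genes at FPKM of at least 20 the same held, with 94.7% of 75 members and 74.5% of 3890 other genes in that band. By at least 0.5 log2, 1 member was higher (5.64% of all genes were) and 1 was lower (4.14%). The higher was Sdhaf1, and the lower was Cox6b2, which also passed 1 log2 (0.669% of all genes were lower by as much). No member was higher by 1 log2 (2.36% of all genes were). In the same library the assembly factor Ndufaf3 was at 15.7 against 11.1 (0.46), Atp5sl at 6.45 against 9.27 (-0.46), Ndufaf1 at 5.80 against 8.12 (-0.42), and Ndufc2 at 47.8 against 37.9 (0.33). The other subunits above 0.25 log2 were Ndufs5, at 44.3 against 36.5, and Ndufb2, at 42.6 against 35.2, both with a change of 0.27.

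**Figure D2:**
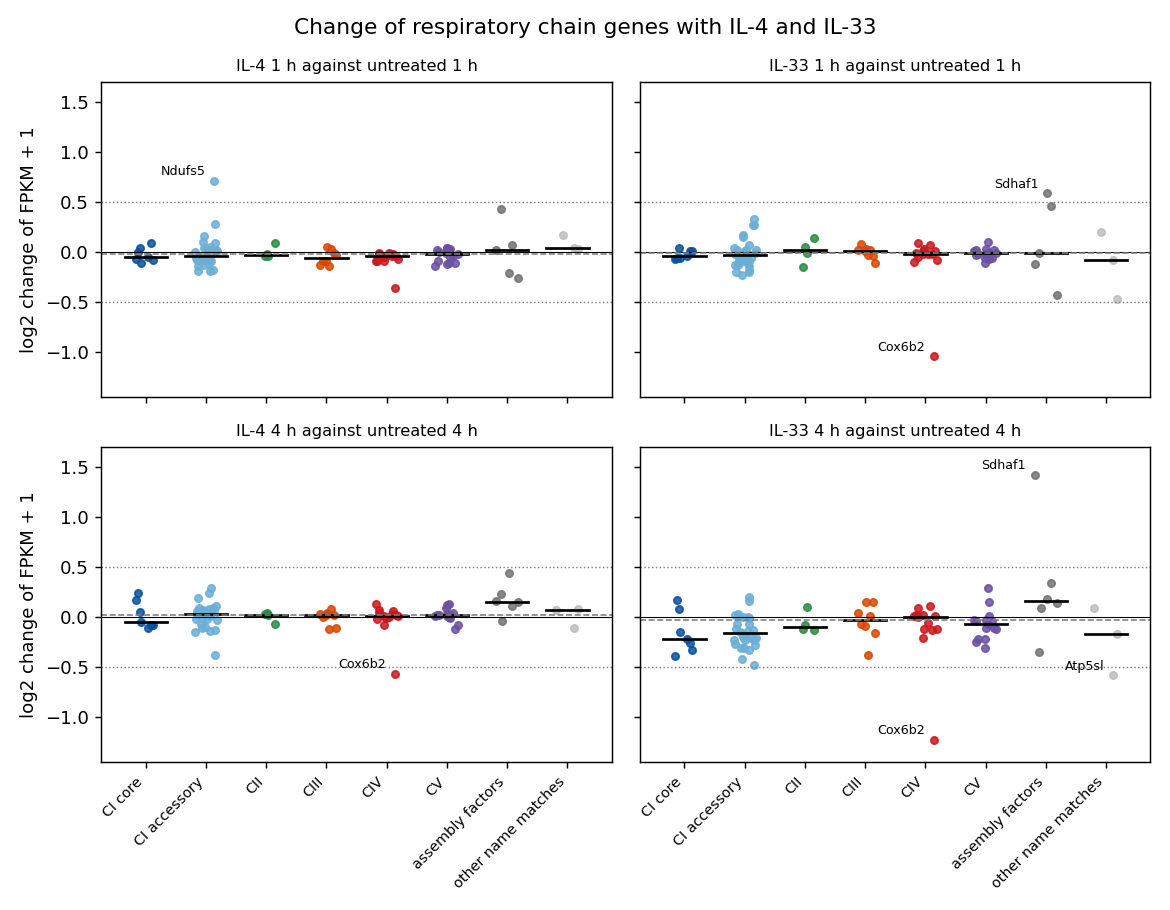
Log2 change of FPKM + 1 of each member against the untreated library of the same time and table, for IL-4 (left) and IL-33 (right) at 1 h (top) and 4 h (bottom). Points are genes at FPKM of at least 1, black bars are class medians, the dashed line is the median of all genes compared, and dotted lines mark 0.5 log2, beyond which genes are named. CI to CV are the complexes. At 4 h with IL-33 the medians of both complex I classes lie below those of complexes III and IV.

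After 4 h of IL-33 the median member was slightly lower, and against the untreated library of the same time the complex I median was the lowest of the 5 complexes. The median change of 85 members was -0.11, against -0.03 for all 10803 genes compared, and 58 of the 85 were below 0 (68.2%), against 53.5% of all genes. In complex I, 29 of 36 subunit genes were below 0, with a median of -0.17 (core -0.22, accessory -0.15). The medians were -0.10 in complex II (3 of 4 below 0), -0.03 in complex III (4 of 8), -0.00 in complex IV (7 of 13) and -0.07 in complex V (12 of 15). Summed over genes, complex I was at FPKM 2671 with IL-33 and 2939 without, a ratio of 0.909, while the ratio was 1.01 for complex III and 0.990 for complex IV. These are small differences between 1 library and 1 library, and no test of them was possible.

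The scale bears on the sign of the smaller medians. When every library was given the same total FPKM, the median of all genes moved from -0.03 to -0.16 at IL-33 4 h, and the medians became -0.31 for complex I, -0.17 for complex III and -0.15 for complex IV. Complex I was below 0 at IL-33 4 h under all 7 alternatives run, between -0.31 and -0.09. With the untreated 1 h library as the control its median was -0.09, and those of complexes IV (-0.10) and V (-0.11) were then the lower. Over the alternatives the medians ranged from -0.24 to 0.03 in complex II, from -0.17 to 0.00 in complex III and from -0.15 to 0.03 in complex IV, so no direction is given for these. Among genes at FPKM of at least 20, members were less spread than the others. The median absolute change was 0.13 for 75 members and 0.25 for 4219 others, whose median was 0.04. This sets a floor and does not match the genes by level.

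Within complex I, Ndufs7, a core subunit that carries an iron-sulfur cluster next to the coenzyme Q site, was at 44.7 with IL-33 and 58.8 without (-0.39). The core subunits Ndufs3 (31.0 and 39.2), Ndufv1 (26.6 and 32.0) and Ndufs8 (44.2 and 51.7) were lower as well. Ndufs1 (23.7 and 22.3) and Ndufv2 (38.1 and 33.8) were on the other side. Among accessory subunits the lowest were Ndufb2 (27.7 and 39.0, -0.48), Ndufv3 (91.5 and 123, -0.42), Ndufa8 (70.6 and 89.1, -0.33), Ndufb6 (46.0 and 57.1, -0.31) and Ndufb10 (64.3 and 79.7, -0.30). The highest were Ndufb7 (189 and 164, 0.20) and Ndufa11 (13.6 and 12.1, 0.16). No complex I gene passed 0.5 log2 in this comparison.

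In complex V, Atp5k was the highest, at 396 with IL-33 and 323 without (0.29), followed by Atp5l at 344 and 310 (0.15). Atp5g2 was the lowest at 181 and 225 (-0.31), with Atp5g1 at 47.1 and 55.1 (-0.22) and Atp5g3 at 217 and 216 (0.01). The 3 subunit c genes thus differed in sign and size. The Atp5g1 value sums 2 transcripts that went opposite ways, at 8.16 against 4.68 (0.69) and at 39.0 against 50.4 (-0.36). In complex III, Uqcr11 was at 71.0 and 92.8 (-0.38), while Uqcrh was at 373 and 336 (0.15). In complex II, Sdhb was at 83.9 and 78.0 (0.10) and the other 3 lay between -0.13 and -0.08. In complex IV, Cox4i1 was at 436 and 430, Cox8a at 412 and 386, Cox6b1 at 347 and 345, Cox6a1 at 331 and 360 and Cox7c at 199 and 231. Apart from Cox6b2, no complex IV gene exceeded 0.25 log2 in either direction.

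**Figure D3:**
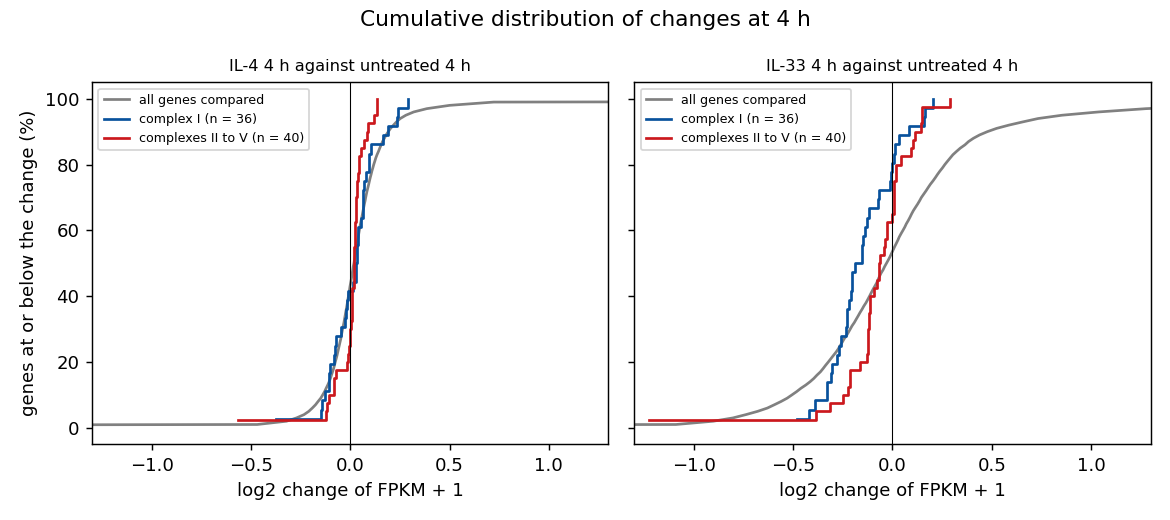
Share of genes (%, vertical axis) at or below a given log2 change of FPKM + 1 (horizontal axis, drawn from -1.3 to 1.3) at 4 h with IL-4 (left) and IL-33 (right), for all genes compared (grey), 36 complex I genes (blue) and 40 genes of complexes II to V (red). With IL-33 the blue curve lies to the left of the red curve over most of its course, and both rise more steeply than the grey curve.

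By at least 0.5 log2 at IL-33 4 h, 1 member was higher (9.50% of all genes were) and 2 were lower (10.2%). By at least 1 log2, 1 was higher (4.15%) and 1 was lower (1.38%). The members past these limits were Sdhaf1, Cox6b2 and Atp5sl, and at 0.5 log2 both counts are a smaller share of the 85 members than of all genes. Cell type markers also differed in this comparison. The 9 eosinophil markers had a median change of -0.14, 3 of them were lower by at least 0.5 log2, and their share of the summed FPKM was 7.69% with IL-33 against 9.06%. The 5 mast cell and basophil markers compared had a median of -0.32. The 9 neutrophil markers had a median change of -0.37 and summed to 5961 with IL-33 against 7897, and the 7 monocyte and macrophage markers had a median of 0.92 and summed to 1818 against 1144. The part of these differences in the values of the chain was not tested.

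Sdhaf1, on mm9 chromosome 7 from 31106427 to 31107394, encodes an assembly factor that helps insert iron-sulfur clusters into Sdhb. In the IL-4 tables it was at FPKM 15.0 untreated and 12.9 with IL-4 at 1 h, and 17.2 untreated and 19.4 with IL-4 at 4 h. In the IL-33 tables it was at 14.2 untreated and 21.9 with IL-33 at 1 h (0.59), and 16.3 untreated and 45.4 with IL-33 at 4 h (1.42). Across the tables, the IL-33 4 h library was the highest and the IL-33 1 h library the next. The values rest on an estimated 234 to 1244 reads a library, counting a transcript as long as the gene's locus. In the authors' deposited table of called genes, Sdhaf1 is marked at IL-33 4 h with a log2 fold change of 1.48. Sdhb, the subunit it serves, changed by 0.10, and Sdha by -0.08.

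Cox6b2, on mm9 chromosome 7 from 4703395 to 4704696, went the other way. It was at 4.64 untreated and 3.40 with IL-4 at 1 h, and at 5.25 untreated and 3.22 with IL-4 at 4 h (-0.57). With IL-33 it was at 1.63 against 4.39 at 1 h (-1.04) and at 1.55 against 4.97 at 4 h (-1.22). All 4 treated libraries were below their untreated control, and, across the tables, both IL-33 libraries were below both IL-4 libraries. This holds for the sum of its 2 transcripts and not for each. At IL-4 1 h they were at 2.80 against 2.59 and at 0.597 against 2.05. At IL-33 4 h the same transcripts were at 0.952 against 4.97 and at 0.602 against 0. At IL-33 1 h both were lower, at 0.208 against 2.45 and at 1.42 against 1.94. The counts of Cox6b2 are small: an estimated 52 and 22 reads in the untreated and IL-33 libraries at 1 h, and 44 and 26 at 4 h, where the IL-33 library was the deeper. Its abundant paralogue Cox6b1 stayed at 354 and 358 at 1 h and 345 and 347 at 4 h.

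Atp5sl, now called Dmac2 and known as a factor for assembly of the membrane arm of complex I, was at 6.45 against 9.27 at 1 h (-0.46) and 7.04 against 11.0 at 4 h with IL-33 (-0.58). With IL-4 it was at 10.0 against 9.81 and 10.7 against 11.7. Ndufaf3, an early assembly factor of complex I, was higher with IL-33 at both times, at 15.7 against 11.1 (0.46) and 17.1 against 13.3 (0.34). Of the 6 assembly factors, 5 were above 0 at IL-33 4 h, with a median of 0.16, and Ndufaf2 was below (2.50 against 3.45).

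**Figure D4:**
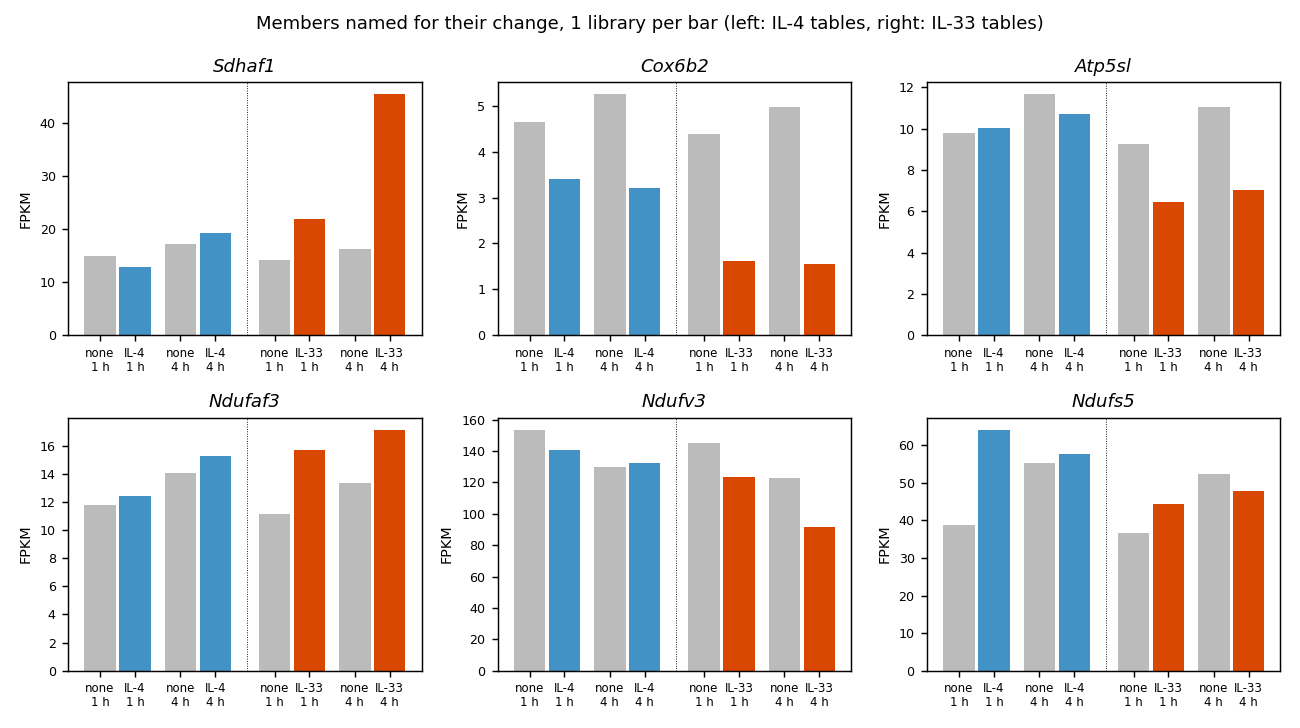
FPKM (vertical axes from 0) of 6 members in each library, 1 library per bar; grey bars are untreated, blue IL-4 and orange IL-33, with the IL-4 tables left of the dotted line and the IL-33 tables right of it. Sdhaf1 reaches 45.4 at IL-33 4 h, and Cox6b2 is lowest in the IL-33 libraries (1.63 and 1.55).

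Set side by side, the medians of the chain with IL-33 and IL-4 were further apart at 4 h than at 1 h, which was not tested. These differences are between changes in separately scaled tables that share an untreated library at each time. At 1 h the median difference, IL-33 minus IL-4, was 0.00 over 84 members (0.01 over all 10748 genes). By at least 0.5 log2, Sdhaf1 was higher (0.79, with 5.59% of all genes higher) and Cox6b2 was lower (-0.68, with 3.14% lower), and 0 members passed 1 log2 (2.34% of all genes were higher and 0.661% lower by as much). At 4 h the median was -0.11 over 85 members (-0.06 over all 10976 genes), and 75.3% of members were below 0, against 57.9% of all genes. In complex I, 31 of 36 genes were below 0 with a median of -0.17. The medians of the other complexes were below 0 as well. They were -0.09 in complex II (3 of 4 genes below 0), -0.06 in complex III (5 of 8), -0.07 in complex IV (9 of 13) and -0.07 in complex V (11 of 15). Sdhaf1 was again the 1 member higher by at least 0.5 log2 (1.26, with 8.15% of all genes higher, and 3.66% by at least 1 log2). By at least 1 log2, 0 members were lower (1.07% of all genes were). The 3 lower (9.82% of all genes) were Cox6b2 (-0.66), Ndufaf2 (-0.58) and Ndufs7 (-0.56), the last at 69.8 with IL-4 and 62.1 in its control.

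Between the untreated libraries, set side by side across the IL-4 tables, the chain differed little. The median of 84 members from 1 h to 4 h was -0.02, while that of all 10813 genes was 0.10. By at least 0.5 log2, 1 member was higher (9.29% of all genes were) and 0 were lower (4.74%). By at least 1 log2, 0 were higher (0.879%) or lower (1.56%). The member past 0.5 log2 was Ndufs5 (38.7 and 55.2, 0.50), which shares its locus with BC002163 (39.9 and 38.6). The core subunits of complex I had a median of 0.19, with Ndufs8 at 43.6 and 54.5 (0.32), and complex IV of -0.09, with 10 of 13 genes lower at 4 h and Cox5a, which anchors the complex on its matrix side, at 221 and 177 (-0.32). Complex V had a median of -0.05, with Atp5l at 393 and 327 (-0.26).

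Genes of heart and striated muscle moved with this comparison. The 20 looked for, which include the 3 muscle isoforms of complex IV, summed to FPKM 229 in the untreated 1 h library. They summed to 177 with IL-4 1 h and 176 with IL-33 1 h. At 4 h they summed to 15.8, 23.0 and 32.9 in the untreated, IL-4 and IL-33 libraries. Most of these 4 h sums was Cox7a1 alone, at 10.7, 17.2 and 27.4. In the untreated libraries 16 of the 20 were at FPKM of at least 1 at 1 h and 2 at 4 h, and Myh6, Tnnt2, Myl3, Mb and Ckmt2 were listed at 0 in the untreated 4 h library. The part of muscle RNA in the differences between 1 h and 4 h was not tested.

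**Figure D5:**
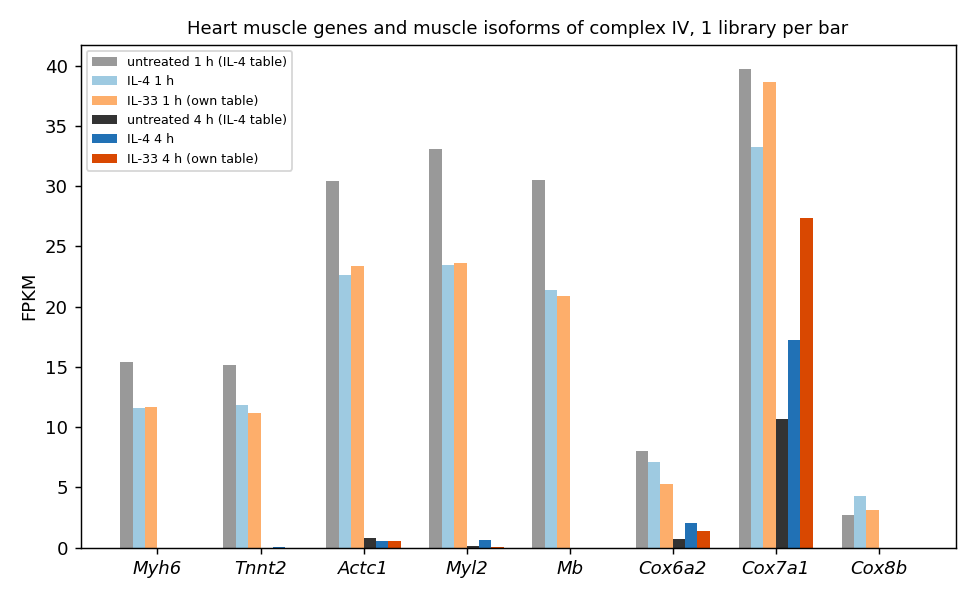
FPKM of 5 heart muscle genes and of the muscle isoforms Cox6a2, Cox7a1 and Cox8b in the 6 libraries, 1 library per bar, with the untreated libraries as in the IL-4 tables and the IL-33 libraries on the scale of their own tables. The contractile genes and Mb are present in the 1 h libraries and near 0 in the 4 h libraries, whereas Cox7a1 is present in all.

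The muscle isoform Cox7a1, left out by the name rule, did not follow the contractile genes at 4 h. It was at 39.8 untreated and 33.3 with IL-4 at 1 h, and at 10.7 and 17.2 at 4 h; in the IL-33 tables it was at 37.6 and 38.7 at 1 h and at 10.1 and 27.4 at 4 h (1.35). In the 4 h libraries Myl3, Mb and Ckmt2 were listed at 0 in all. The authors' deposited table marks Cox7a1 at IL-33 4 h with a log2 fold change of 1.44. Cox6a2 was at 0.673 and 1.42 in the IL-33 table at 4 h, and Cox8b was listed at 0 in both.

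The authors' deposited table of 1593 called genes names 5 members, each marked in 1 comparison. Beside Sdhaf1 these are Ndufa13 (-0.19) and Ndufc2 (0.29) at IL-4 1 h, Ndufb7 (0.29) at IL-4 4 h and Ndufv3 (-0.23) at IL-33 1 h, as log2 fold changes of that table. Ndufv3 has a short transcript and a long one that keeps an additional exon. In the IL-33 table at 4 h the short transcript was at 84.5 against 108 (-0.35) and the long one at 7.02 against 14.7 (-0.97). At 1 h they were at 117 against 133 (-0.19) and 6.97 against 12.3 (-0.74). With IL-4 the long transcript was at 10.5 against 13.0 at 1 h and 15.9 against 15.5 at 4 h. These are the authors' estimates per transcript from single reads, and the error of dividing reads between transcripts is not known here.

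Other genes of oxidative metabolism, are given by lists drawn up with earlier results of these data known. Between the untreated libraries, from 1 h to 4 h, the medians were 0.29 over 14 genes of mitochondrial biogenesis and 0.17 over 76 of the mitochondrial ribosome. The median was 0.10 over all 10813 genes compared and -0.02 for the members. Of 3 further subunits, Cyc1 of complex III, Usmg5 and 2010107E04Rik, both of complex V, 0 passed 0.5 log2 in any comparison. Among 27 other assembly factors compared the median was -0.13 at IL-33 4 h. Pet117, an assembly factor of complex IV, was the 1 higher by at least 1 log2 at IL-4 4 h (7.19 against 1.57, 1.67), where 0.646% of all genes were. It was also the 1 at IL-33 4 h (7.63 against 1.48, 1.80), where 4.15% of all genes were, and 0 were lower at either. Both values are set against the same untreated 4 h library, in which Pet117 was near the limit of FPKM 1. Of the 27 compared, 1 was lower by at least 1 log2 from untreated 1 h to untreated 4 h (1.56% of all genes were). Likewise 1 was lower for IL-33 against IL-4 at 1 h (0.661%). Among 17 citrate cycle genes 0 passed 0.5 log2 with IL-4. By as much, 0.950% of all genes were higher and 0.772% lower at 1 h, and 2.00% and 0.886% at 4 h. Citrate synthase Cs, which starts the cycle, was at 142 against 74.0 at IL-33 1 h (0.93) and 160 against 83.9 at IL-33 4 h (0.93), whereas Mdh2, the most abundant of them, was at 228 against 255 and 207 against 232. Dld, a subunit shared by several dehydrogenases, was at 49.8 against 30.5 at IL-33 1 h (0.69).

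Of 11 genes of coenzyme Q synthesis, 1 was lower by at least 1 log2 at IL-33 4 h (1.38% of all genes were). It was Coq4 (11.2 against 24.1, -1.05). Of 14 genes of mitochondrial biogenesis compared, 1 was higher by at least 1 log2 at IL-33 1 h (2.36% of all genes were). This was Gabpb1, which encodes a subunit of the ETS factor GABP (42.6 against 18.4, 1.17), and at 4 h it was at 19.6 against 14.8. The 76 mitochondrial ribosome genes had medians of -0.03 at IL-4 1 h, 0.03 at IL-4 4 h, -0.09 at IL-33 1 h and -0.08 at IL-33 4 h, with 0 past 1 log2 in any of these. Among 13 carriers and electron entry genes 0 passed 1 log2, and Gpd2, which feeds electrons from glycerol 3-phosphate to coenzyme Q, was at 15.2 against 8.90 at IL-33 4 h (0.71), while Dhodh was at 1.39 against 2.88 (-0.70). The 23 genes of protein import compared had a median of 0.04 at IL-33 4 h, with 0 past 0.5 log2. Of all genes at IL-33 4 h, 9.50% were higher and 10.2% lower by at least 0.5 log2, and 4.15% and 1.38% by at least 1 log2.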

How the data were processed

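RNA of 6 libraries was read as single reads. Per the submitters' processing notes, reads were processed with TopHat 1.4.1 and Cuffdiff 1.2.1 on the mouse build mm9; further settings are not given in the sources used here. Deposited by the authors were 4 tables of FPKM per transcript (1 per cytokine and time, each with its untreated library) and a table of called genes with log2 fold changes. The members and the lists of markers and pathway genes were chosen with earlier results of these data known. FPKM was summed over the transcripts of a symbol, with the locus of the highest total kept where a symbol had several. Changes are log2 of (FPKM + 1) ratios with a pseudocount of 1, for genes at FPKM of at least 1 in a library compared. With 1 library per group no test was run. Reads were estimated from the steps between low values and from transcript lengths of another annotation, taken as no longer than the locus in the files, and so are approximate.

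Named were the 2 highest and the lowest member of each complex, the paralogue sets, members past 1 log2 in a comparison, and the 3 largest differences each way at FPKM of at least 5. Of the pathway lists, some of those past 1 log2 and some of the most abundant were named. Genes outside this rule, such as Dld, Gpd2, Dhodh and further subunits of complex I, were picked after their values were seen. The step that computes changes was checked on simulated data. Alternatives changed the pseudocount, filter, scaling, transcript choice and control. Scripts used Python 3.11.15, pandas 2.3.3 and numpy 2.4.6. Coordinates of genes are of mm9 and those of promoters of GRCm38.p6. Some values of members are not reported here.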

Additional observations from a re-analysis of the deposited data

How the results depend on the processing

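All medians of the members kept their direction where they were 0.1 or more in size, under every alternative run. Giving each library the same total FPKM moved the members' median to -0.12 at IL-33 1 h, -0.25 at IL-33 4 h, and, for IL-33 against IL-4, -0.13 at 1 h and -0.22 at 4 h, and it changed the counts past 0.5 log2 to 0 higher and 3 lower at IL-33 1 h, 6 lower at IL-33 4 h, and 4 lower (1 h) and 5 lower (4 h) for IL-33 against IL-4. On that scale 4.79% of all genes were higher and 7.32% lower at IL-33 1 h, 17.4% were lower at IL-33 4 h, and 6.48% (1 h) and 16.2% (4 h) were lower for IL-33 against IL-4. A pseudocount of 0.1 gave 2 higher past 0.5 log2 at IL-4 1 h (1.66% of all genes were) and 1 higher at IL-4 4 h (3.12%). It gave 2 lower at IL-33 1 h (6.61%) and 3 lower for IL-33 against IL-4 at 1 h (5.39%). A minimum of FPKM 10 removes Cox6b2. It left 0 lower at IL-4 4 h (0.671% of all genes were), at IL-33 1 h (3.28%) and for IL-33 against IL-4 at 1 h (2.63%). It left 1 lower at IL-33 4 h (9.66%) and 1 lower for IL-33 against IL-4 at 4 h (9.23%). Past 1 log2, 0 were then lower at IL-33 1 h and at IL-33 4 h. With the control of the other time, counts past 0.5 log2 are given with shares of all genes in brackets. At IL-4 1 h, 0 members were higher (4.71%) and 1 was lower (10.7%). At IL-4 4 h, 2 were higher (10.4%) and 0 were lower (4.2%). At IL-33 1 h, 0 were higher (9.25%) and 2 were lower (17.1%). At IL-33 4 h, 2 were higher (13.7%). Centring on the median of all genes gave 0 higher between the untreated libraries (5.46% of all genes were). It gave 2 lower for IL-33 against IL-4 at 1 h (3.28%). Without a filter 1 was lower between the untreated libraries (3.45% of all genes were). With the most abundant transcript only, 2 were higher between them past 0.5 log2 (10.8% of all genes were). On that setting 1 was lower past 1 log2 for IL-33 against IL-4 at each time. Shares of all genes past 1 log2 were not computed for the alternatives.

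Alternatives added after seeing the data left out members. With subunits only, which drops Sdhaf1 and Atp5sl, 0 were higher past 0.5 log2 at IL-33 1 h and 4 h and for IL-33 against IL-4 at both times, 0 were higher past 1 log2 at IL-33 4 h and for IL-33 against IL-4 at 4 h, and 1 was lower past 0.5 log2 at IL-33 4 h. Without members whose locus holds another gene, which drops Ndufs5, 0 were higher at IL-4 1 h and between the untreated libraries. Sdhaf1 at IL-33 1 h was at 0.50 with equal totals, just under the limit, and at 0.40 with the control of the other time. Atp5sl at IL-33 4 h was at -0.35 with that control. The causes were not tested. No paired analysis was possible because each group holds 1 library. Depth limits Cox6b2, with an estimated 22 to 52 reads a library, and Ndufaf2, with 35 to 61.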
